A study of Caenorhabditis elegans with 2 samples.

Results

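Distal peaks are the places where the CEH-44 protein of Caenorhabditis elegans was recovered away from coding promoters and from genes of tRNAs, snoRNAs and snRNAs. A peak of the larger series list was taken as distal when its summit lay in no promoter window of a protein-coding gene and no tRNA, snoRNA or snRNA gene lay within 500 bp. The window ran from 1000 bp upstream to 200 bp downstream of the gene's most upstream start in the Ensembl annotation of WBcel235. This left 289 of the 1027 peaks (28.1%, exact 95% interval 25.4 to 31.0%). The others were 355 promoter peaks with no small RNA gene near and 383 peaks with such a gene within 500 bp, some of them in promoters too. The intervals of shares given here are exact (Clopper-Pearson) and account for the error of counting alone.

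The samples were whole worms of strain RW12327 at the fourth larval stage (L4, 49 hours), grown up from starved first-stage larvae. CRISPR had inserted TY1, EGFP and 3xFLAG sequences at the endogenous ceh-44 gene, and sonicated chromatin (200 to 800 bp) was pulled down with an antibody to GFP, per the sample descriptions (the antibody field of the labels reads ceh-44). There were 2 samples, biological replicates of this 1 group. No other genotype or condition was analysed here, so all comparisons are between kinds of peak. Each peak carries the authors' signal value, whose scale is not stated and which is compared only within a list.

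CEH-44 belongs to the CUX branch of the CUT homeobox family, whose members bind DNA through a homeodomain together with cut repeats, and it is made throughout the nervous system. Chromatin came from all tissues together, so a peak does not say in which cells the protein sat. Sites outside promoters can be enhancers, unannotated starts, or genes inside repeats. tRNA genes and the repeats derived from them carry their promoter inside the transcribed sequence, as an A box and a B box read by TFIIIC for RNA polymerase III.

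Sequences under distal summits are shown first, both ones that recur in repeats and single-copy examples. They are read from the NCBI RefSeq WBcel235 (ce11) sequence, 5′ to 3′. Capitals mark matches on either strand to the words searched. These were ATCGAT and its variants with ATCAAT as one and ATTAAT as the other, GAGAGA, the tRNA B box word GGTTCGA, the telomere unit TTAGGC and the TATA box word TATAAA. Added after seeing the sequences under the peaks were GTTCNANNC (the core of a B box), GGCNNAGTG (an A box core), TTCNNGAA (the pair of units in a heat shock element) and the word GAGACGCA. GGTTCGA overlaps a B box word where both match, and the 3 AT-rich words are forms of the binding word described for CUT homeodomains. 3 members of a tRNA-like repeat, with their A box and B box words, are:
Peak near nhr-277, chrIV:2740214-2740282, plus strand: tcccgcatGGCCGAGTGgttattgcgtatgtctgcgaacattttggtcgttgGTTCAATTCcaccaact
Peak near aagr-2, chrII:4928497-4928564, minus strand: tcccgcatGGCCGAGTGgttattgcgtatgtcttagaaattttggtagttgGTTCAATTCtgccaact
Peak in an srt-52 intron, chrV:53476-53544, plus strand: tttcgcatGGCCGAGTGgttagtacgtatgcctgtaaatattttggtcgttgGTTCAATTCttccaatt

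In an intron of unc-104 the summit lay inside a tRNA pseudogene, whose B box is capitalised here:
Peak in an unc-104 intron, chrII:7001561-7001701, plus strand: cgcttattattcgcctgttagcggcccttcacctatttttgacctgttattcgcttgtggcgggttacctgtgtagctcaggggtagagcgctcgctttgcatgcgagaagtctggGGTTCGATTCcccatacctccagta

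Tandem copies of a short unit carried runs of the TTCNNGAA word at these peaks:
Peak near srv-14, chrIV:15896006-15896126, plus strand: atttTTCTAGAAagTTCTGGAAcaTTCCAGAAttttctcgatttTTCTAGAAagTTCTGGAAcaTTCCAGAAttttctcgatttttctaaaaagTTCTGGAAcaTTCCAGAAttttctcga
Peak near fbxa-190, chrX:1375245-1375365, plus strand: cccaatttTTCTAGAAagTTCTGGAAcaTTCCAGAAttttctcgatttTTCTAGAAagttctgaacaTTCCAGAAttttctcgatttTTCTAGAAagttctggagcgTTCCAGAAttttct

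A repeat whose copies were more than 90% alike carried an ATCAAT word and a B box word:
Peak near ftn-1, chrV:7548688-7548808, plus strand: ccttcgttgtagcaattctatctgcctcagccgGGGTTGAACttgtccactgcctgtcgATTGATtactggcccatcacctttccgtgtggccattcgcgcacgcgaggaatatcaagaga
Peak in a pmt-2 intron, chrV:4632966-4633086, plus strand: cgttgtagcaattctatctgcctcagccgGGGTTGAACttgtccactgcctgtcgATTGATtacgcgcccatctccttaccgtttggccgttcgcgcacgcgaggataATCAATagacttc

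The strongest distal peak and a neighbour on the opposite strand held a common stretch with a GAGAGA word:
Strongest distal peak, near K08F11.1, chrIV:4727972-4728092, plus strand: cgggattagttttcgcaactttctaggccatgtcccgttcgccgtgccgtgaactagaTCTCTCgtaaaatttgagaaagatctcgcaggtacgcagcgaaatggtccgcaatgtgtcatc
Its neighbour, near K08F11.1, chrIV:4720644-4720764, minus strand: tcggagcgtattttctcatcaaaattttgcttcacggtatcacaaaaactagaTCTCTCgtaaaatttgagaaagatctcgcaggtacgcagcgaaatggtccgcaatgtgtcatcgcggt

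Peaks in single-copy sequence are shown as examples without repeats. The one beside mir-51 has a GGTTCGA word, the strongest of those free of any repeat or noncoding gene has ATCAAT, the one in a ceh-44 intron has ATCGAT, and the one in a zfp-1 intron has GAGACGCA:
Peak beside mir-51, chrIV:11026146-11026266, plus strand: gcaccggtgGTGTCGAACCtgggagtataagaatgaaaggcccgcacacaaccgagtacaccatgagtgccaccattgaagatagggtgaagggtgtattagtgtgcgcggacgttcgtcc
Peak near W02H3.3, chrX:11094161-11094281, plus strand: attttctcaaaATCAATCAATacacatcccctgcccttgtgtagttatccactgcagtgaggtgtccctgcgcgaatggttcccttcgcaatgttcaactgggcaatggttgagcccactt
Peak in a ceh-44 intron, chrIII:2535364-2535484, plus strand: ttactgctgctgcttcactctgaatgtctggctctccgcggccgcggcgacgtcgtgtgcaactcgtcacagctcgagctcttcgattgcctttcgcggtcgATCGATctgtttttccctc
Peak in a zfp-1 intron, chrIII:8802016-8802136, plus strand: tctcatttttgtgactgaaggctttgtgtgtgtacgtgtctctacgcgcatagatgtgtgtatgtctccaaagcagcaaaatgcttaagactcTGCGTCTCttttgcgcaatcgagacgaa

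Distal peaks lay mostly between genes and in introns and seldom in exons. Of the 289, 135 were intergenic (46.7%, interval 40.8 to 52.6%), 121 were in introns of coding genes (41.9%, 36.1 to 47.8%) and 33 were in exons (11.4%, 7.99 to 15.7%). The background is the ranked list from which the peaks were taken. Of its 115557 candidates 0.889% passed into the thresholded list, and of the 89735 candidates at distal positions 0.322% did. Among the 89446 distal candidates that did not pass, 27.4% were intergenic, 36.6% in introns and 35.97% in exons, so exons were less frequent among the peaks than among these candidates, and their intervals did not overlap. Of the 33 exon peaks 7 lay in 5′ UTRs (21.2%, 8.98 to 38.9%), against 2.07% of the exon candidates outside the list, and 25 in coding sequence (75.8%, 57.7 to 88.9%), against 90.7%. None lay in a 3′ UTR, against 6.87% of those candidates. With 33 exon peaks the interval for 3′ UTRs reaches 10.6%, so a difference there was not detectable.

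As a class, distal peaks were weaker than both others. Their median signal was 67.5 (quartiles 59.4 and 82.8), against 74.7 (63.8 and 100.2) at promoter peaks and 84.9 (69.5 and 105.4) at peaks near small RNA genes. Intergenic peaks had a median of 71.8, intron peaks 66.9 and exon peaks 63.1. The 100 strongest peaks of the series held 20 distal ones and the 500 weakest held 185. The quartiles of the 3 classes overlapped, so the classes differed in their middle and not as separate groups.

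**Figure D1:**
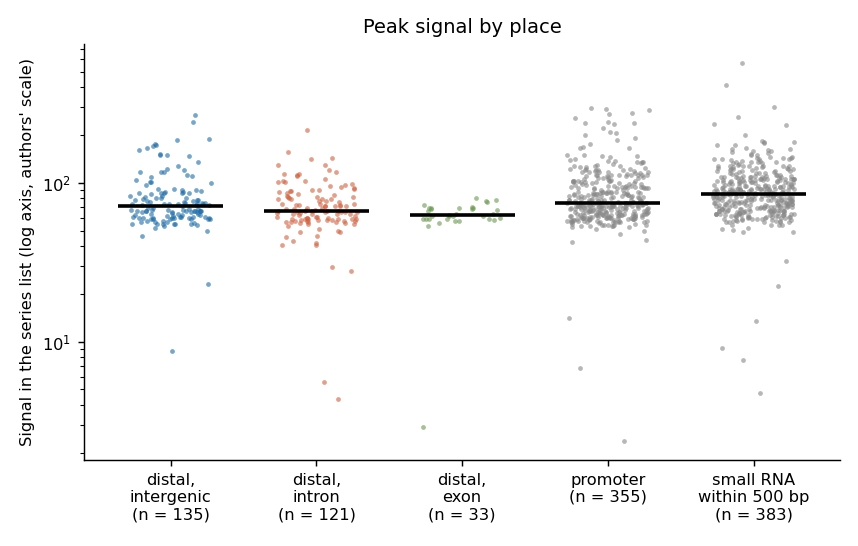
Signal of each of the 1027 peaks (points, log axis, the authors' unstated scale) by place, with the median as a bar. The medians run from 63.1 at distal exon peaks to 84.9 at peaks near small RNA genes, and the ranges of all 5 columns overlap.

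A smaller share of distal peaks than of other peaks stood in both replicates' own lists. Of all 1027 peaks, 25.2% overlapped a peak in both replicates' own thresholded lists. Of the distal ones it was 48 (16.6%, interval 12.5 to 21.4%), against 25.4% (20.9 to 30.2%) of promoter peaks and 31.6% (26.96 to 36.5%) of peaks near small RNA genes. Of the remaining distal peaks, 32 were found with replicate 1 only, 55 with replicate 2 only and 154 (53.3%) with neither. By place, 30 of 135 intergenic peaks, 18 of 121 intron peaks and 0 of 33 exon peaks were in both lists, and the exact interval of the last reaches 10.6%. The distal interval overlapped slightly with that of promoter peaks. The authors' conservative series list overlapped 80.6% of distal peaks (75.6 to 85.0%), 82.0% of promoter peaks and 88.0% of peaks near small RNA genes. Strong members were found most often: 45 of the 80 strongest distal peaks were in both lists and 3 of the other 209. Of those 3, the summits of 4.32 in a gpa-1 intron and of 8.75 on chromosome V at 14055447 each lay about 200 bp from a stronger distal summit and overlapped the same own-list peaks as it. Distal peaks also had the lower signal, and its part in these shares was not tested.

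Without a threshold, nearly every distal peak had a candidate in both replicates, as did nearly every peak of the other classes. That held for 285 of 289 (98.6%), against 98.03% of promoter peaks and 98.7% of peaks near small RNA genes. The series list drew on both replicates, which in part sets these shares. Across the 285, the candidates' signals in the 2 replicates had a Spearman's rho of 0.33 and a Pearson's r of log2 signal of 0.54, as a description over peaks that share their libraries. For the 348 promoter peaks rho was 0.34 and for the 378 near small RNA genes it was 0.42. Among distal peaks, rho was 0.44 over 133 intergenic ones, 0.36 over 120 intron ones and −0.61 over 32 exon ones. The series list was drawn on both replicates together, and the exon peaks spanned a narrow range of series signal (quartiles 59.1 and 69.5). The part of this in their negative rho was not tested.

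**Figure D2:**
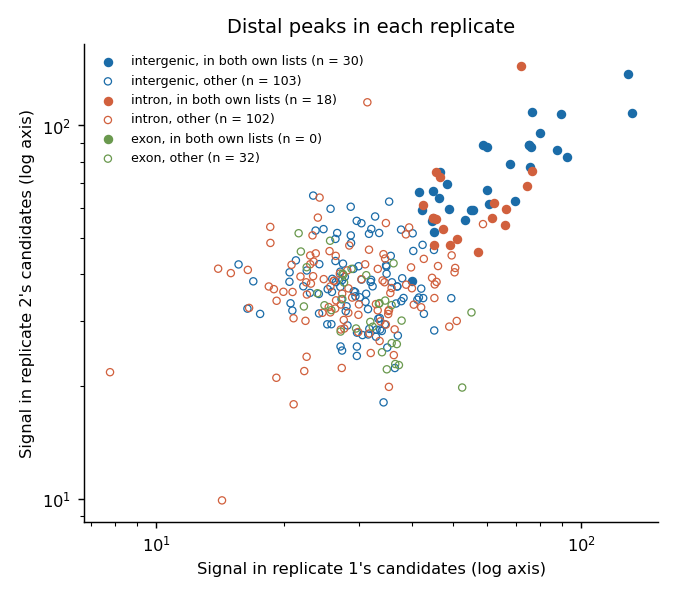
Signal of the candidate in replicate 1 (x, log axis) against that in replicate 2 (y, log axis) for the 285 distal peaks with one in each, coloured by place and filled where the peak is in both replicates' own lists. The 48 filled points are the 30 intergenic and 18 intron peaks, and no exon peak is among them.

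The strongest intergenic peaks were all found in both replicates. The strongest of all, on chromosome IV at 4728032, reached 268.4, and the replicates' own lists gave it 128.7 (replicate 1) and 137.4 (replicate 2). It lay 3170 bp downstream of the start of K08F11.1 and within 500 bp of the 2000 bp pseudogene K08F11.6. Another, at 4725599 on the other side of that pseudogene, reached 240.4, and the own lists gave it 131.8 (replicate 1) and 107.9 (replicate 2). With the peak at 4720704 (signal 101.7) they formed a group of 3 within 7328 bp, beside 4 other groups of 3. In all, 28 groups of 2 or more distal peaks had gaps of at most 10000 bp, and 3 of them were pairs of summits 199 to 205 bp apart.

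The other 8 strongest intergenic peaks had signals from 152.1 to 189.7 and were all in both replicates' lists. One, near F40E3.3, belonged to the same repeat family as the strongest peak and had 89.5 in replicate 1 and 107.3 in replicate 2. One near C46C2.7, between that gene and wnk-1 (a WNK kinase gene), had 76.4 and 108.6 in replicates 1 and 2. The remaining 6 lay near Y106G6H.9, srv-14 and fbxa-190 (a chemoreceptor and an F-box gene), F58D12.3, T26G10.1 and K07D4.2. All 10 stood in sequence with several genomic copies, in a family or with over 10% repeated words, as described below.

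Of the 135 intergenic peaks 71 lay between genes in tandem, 35 between convergent genes and 29 between divergent ones. A coding gene's end was nearer than any start for 76 of them (56.3%). No gene of any kind lay within 500 bp of 73 (54.1%). Over all 289 distal peaks the median distance to the nearest coding start was 2386 bp (quartiles 1375 and 4125), against 2162 bp (1212 and 3968) for the distal candidates that did not pass. Of the 289, 110 lay upstream of the nearest start and 179 downstream of it.

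**Figure D3:**
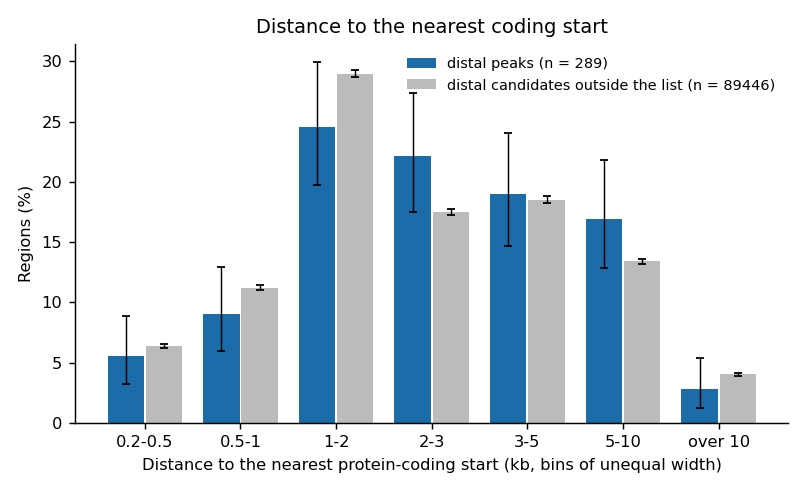
Share of the 289 distal peaks (left bars) and of the 89446 distal candidates outside the list (right bars) by distance to the nearest protein-coding start in kb, in bins of unequal width, with exact 95% intervals. The candidates' share lies inside the peaks' interval in every bin. In the bin of 1 to 2 kb were 24.6% of the peaks and 29.0% of the candidates, and in that of 2 to 3 kb 22.1 and 17.5%.

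Distances at the edges of the rule show how the class was bounded. The distal peak nearest to a start was in an nstp-10 intron, 203 bp downstream of that gene's start and 1011 bp upstream of another's, with a signal of 130.2. The promoter peak farthest upstream lay at 1000 bp (signal 77.9) and the one farthest downstream at 177 bp (84.2). The distal peak nearest to a small RNA gene was 589 bp from it (69.6), and the farthest peak counted with a small RNA gene was at 494 bp (66.2).

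Intron peaks sat in longer introns than the intron candidates that did not pass. Their introns had a median length of 2114 bp (quartiles 803 and 3934), against 965 bp (444 and 2214) for those candidates. Their host genes had a median length of 7835 bp, which was not compared with that of the candidates' hosts. The window of another annotated transcript start of a coding gene held 33 of the 121 (27.3%), and 11 of the 33 exon peaks, so 44 distal peaks (15.2%) would be promoter peaks if every annotated start counted. No intergenic peak was in such a window. The 154 intron and exon peaks fell in 141 host genes, of which 12 held more than 1. ppfr-1, a phosphatase regulatory subunit, held 3.

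Among the 10 strongest intron peaks, 9 were found in both replicates. The strongest, in ints-8 (an Integrator complex subunit), reached 216.02, and the own lists gave it 71.9 (replicate 1) and 144.6 (replicate 2). Its summit lay inside rpr-1, the RNA of RNase P, an enzyme that trims tRNA precursors. The next lay in a 4567 bp intron of unc-104, the kinesin that carries synaptic vesicle precursors along axons, at 155.99, with own-list values of 76.5 (replicate 1) and 75.4 (replicate 2). Both sat on annotated noncoding or pseudogene sequence inside their host.

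The others stood in introns of genes of varied roles. A peak in cmk-1, a calcium/calmodulin-dependent kinase, had 143.9, with 74.5 in replicate 1 and 68.9 in replicate 2. One in tir-1, the SARM1 homologue, had 142.1 and was in replicate 2's list alone, at 115.4. Signals of 113.8 to 130.2 were found in nstp-10, T02E1.2, W09B6.4, scc-2 (the cohesin loader), ckk-1 (the kinase that activates CMK-1) and CD4.11. All 6 of these were in both lists. The tir-1 peak was in the repeat family of the satellite described below. Those in T02E1.2, W09B6.4 and ckk-1 were each the strongest of another repeat family.

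Exon peaks had no strong members. The 8 strongest had signals of 69.6 to 80.4, none was in both replicates' lists and 3 were in neither. They lay in pck-2 (a PEP carboxykinase, where the summit lay in the satellite described below), C34C12.2, col-105 (a collagen), azin-1, fkh-7 (a forkhead factor), pqn-27, fath-1 and rpl-7A (a large ribosomal subunit protein). The weakest distal peak of all was also exonic, in rps-6, at a signal of 2.89.

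Sequence under distal peaks was often repeated elsewhere in the genome. A copy was counted wherever BLASTN matched at least 80 bp of the 301 bp around the summit, the summit included, and overlapping matches counted as 1 locus. By this count 145 distal summits (50.2%, interval 44.3 to 56.1%) had more than 1 copy, against 18.6% (14.7 to 23.04%) of promoter peaks and 73.6% (68.9 to 77.98%) of peaks near small RNA genes, whose genes are themselves multicopy. More than 20 copies were found for 79 distal summits (27.3%), against 8.45% at promoters and 33.9% near small RNA genes.

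The class with the most repeated sequence changed with the measure. A share of 50% or more of the 30-base words within 250 bp of the summit recurred in the genome at 74 distal peaks (25.6%, 20.7 to 31.0%). This was so for 3.10% (1.56 to 5.48%) of promoter peaks, 1.04% (0.285 to 2.65%) of peaks near small RNA genes and 5.24% of the distal candidates outside the list. With more than 10% as the limit the order was another, with 43.6% (37.8 to 49.5%) of distal peaks, 14.9% of promoter peaks, 68.9% (64.03 to 73.5%) of peaks near small RNA genes and 17.1% of those candidates. Near small RNA genes the median share of repeated words was 11.7%, so few windows there came near 50%. By place, a share of 50% or more was found at 34.8% of intergenic, 19.8% of intron and 9.09% of exon peaks. RefSeq's soft-masked sequence made up 50% or more of that window at 24.6% (19.7 to 29.95%) of distal peaks, 19.2% (15.2 to 23.6%) of promoter peaks, 1.83% of peaks near small RNA genes and 20.3% of the distal candidates outside the list. The 6 distal peaks with the highest shares of repeated words had 89.2 to 100% and signals of 59.4 to 142.1, the highest in tir-1 and the others at most 77.5. How the authors treated reads that match several places is not given in the sources used here, and the part of this in the peaks was not tested.

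**Figure D4:**
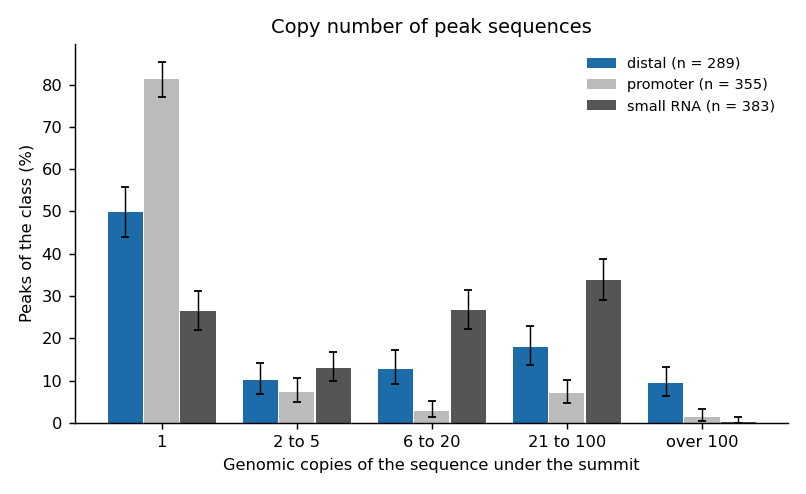
Share of distal, promoter and small RNA peaks (left to right in each group of bars) by the number of genomic copies of the sequence under the summit, with exact 95% intervals. A single copy was found for 49.8% of distal, 81.4% of promoter and 26.4% of small RNA peaks, and more than 100 copies for 9.34, 1.41 and 0.261%.

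Repeated distal peaks had the higher signal. The 145 with several copies had a median of 73.6 (quartiles 62.5 and 90.6), against 64.9 (58.7 and 74.1) for the 144 with 1 copy. In both replicates' lists were 32 of the 145 (22.1%, 15.6 to 29.7%), against 16 of the 144 (11.1%, 6.49 to 17.4%). Of the 20 strongest distal peaks 17 were in repeated sequence by at least 1 measure (copies, family or words), against 156 (53.98%) of all 289. Of the same 20, 14 were intergenic and 19 were in both lists.

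Distal peaks fell into families by likeness to one another. Windows of 301 bp that matched over at least 60 bp were joined, which placed 108 of the 289 in 23 families and left 181 alone. Where 2 windows overlapped, the match of their common stretch to itself was not counted. There were 10 families of 4 or more members, which together held 79 peaks. In these, 54 of the 64 summits that could be aligned to the strongest member's lay within 50 bp of it on the repeat. The windows joined were centred on the summits, which in part sets this closeness. The families differed in their spread: the largest had peaks on all 6 chromosomes, and some of the small ones on 1 alone.

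**Figure D5:**
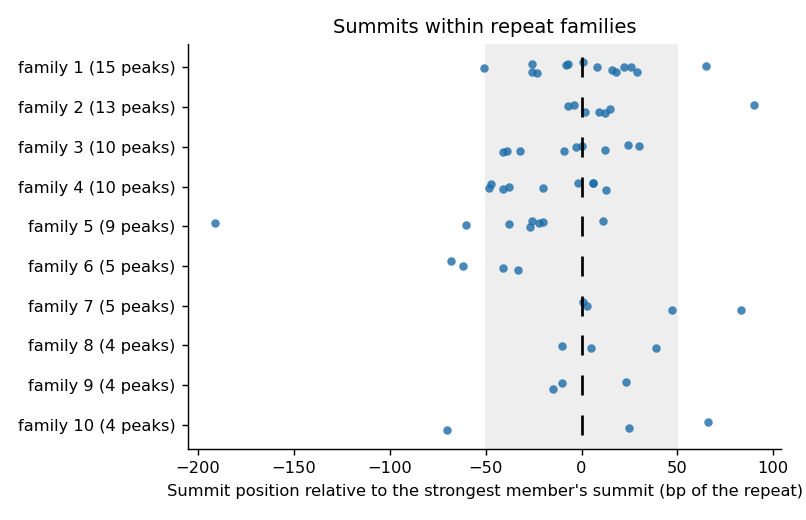
Position of each member's summit relative to the summit of the strongest member of its family (black bar at 0), in bp along the shared sequence, for the 10 families of 4 or more peaks. Of 64 aligned summits, 54 fall within the shaded 50 bp on either side.

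The largest family, of 15 peaks, is the tRNA-like repeat shown above. All 15 had the A box word within 100 bp and 9 had the B box word. Signals ran from 60.9 to 121.2 with a median of 81.8, 12 were intergenic and 3 in introns, and 2 were in both replicates' lists. The strongest, near nhr-277, had 121.2 and lay 8 bp before the annotated tRNA pseudogene Y94H6A.t1, on chromosome IV from 2740214 to 2740286. Of the 86 genomic loci of the family 15 held a series peak (17.4%) and 55 held at least a ranked candidate.

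The second family, of 13 peaks, includes the tandem satellite with TTCNNGAA runs. Windows were joined through any member, and 7 of the others aligned directly with the strongest. Within 100 bp of the summit 8 of 13 members had this word, each at least 9 times, and the other 5 had none. The strongest was near srv-14, at 173.6, with own-list values of 92.3 (replicate 1) and 82.1 (replicate 2). The next, near fbxa-190, reached 170.3, with own-list values of 87.5 (replicate 1) and 86.2 (replicate 2). Over the loci of all 13 members together, a series peak was found in 12 of 641 (1.87%), which is not a share of the satellite alone. The word was chosen from these peaks. At least 3 copies of it within 100 bp were found at 8 distal peaks (2.77%), all of this family, and at 2 promoter peaks (0.563%). No peak near small RNA genes had them, and 252 of the distal candidates outside the list (0.282%) did.

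The other families ranged widely in genomic copies and in the share with a peak. A family of 10 that includes the peaks near K08F11.1 and C46C2.7 and in brc-1 and mod-5 introns (the BRCA1 homologue and the serotonin transporter) had 28 loci, 13 with a series peak (46.4%). Its median signal, 105.9, was the highest of the families of 5 or more. The family of 10 shown with ftn-1 and pmt-2 had 22 loci, 10 with a peak (45.5%), and its members were 90.8 to 94.5% identical to the strongest. All 10 had ATCAAT and 9 had the B box word within 100 bp, and RefSeq masked little of it (median 5.79% of the window).

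The family of the strongest peak had 4 members and 8 loci, 4 of them with a peak. Its aligned stretches were 96.3 to 100% identical, and all 4 had GAGAGA within 100 bp. Signals were 268.4, 189.7, 101.7 and 69.7, and 3 of the 4 were in both replicates' lists. One family of 5, all in introns and one of them in daf-2 (the insulin receptor), had 2320 loci, 5 with a peak (0.216%), and none of its members was in both lists. A family of 9, with members in duo-3, spd-5 and set-25 introns, had 137 loci, 17 with a peak (12.4%).

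Other noncoding genes were near distal peaks more often than near the candidates, and less often than near the small RNA peaks. An ncRNA gene, which the annotation leaves mostly unclassified, lay within 500 bp of 51 (17.6%, 13.4 to 22.5%), against 13.0% (9.65 to 16.9%) of promoter peaks, 60.6% (55.5 to 65.5%) of peaks near small RNA genes and 6.59% of the distal candidates outside the list. The summit was inside one for 22 (7.61%), against 8.45% at promoter peaks, 41.5% near small RNA genes and 1.33% of those candidates. Of the 51, 11 were in both replicates' lists.

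Some of these genes make RNAs that RNA polymerase III transcribes in other eukaryotes, rpr-1 among them. A further 3 peaks formed a family at srpr-2.2, srpr-1.1 and srpr-2.1, which encode the RNA of the signal recognition particle. The summit was inside 2 of them and 6 bp upstream of the annotated start of srpr-1.1. At srpr-2.2, in an intron of the kinesin gene klp-6, the signal was 90.6, with 64.1 in replicate 2 and no peak in replicate 1's own list. At srpr-1.1 it was 67.4, in neither list, and at srpr-2.1 it was 54.8, with 27.3 in replicate 1. The family had 5 loci in the genome, of which 3 held a peak and all 5 a candidate.

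The other strong ones lay at genes with sequence names alone. The peak of 240.4 described above was near K08F11.7, and that between C46C2.7 and wnk-1, at 185.3, was near C46C2.11 and C46C2.12. A peak beside mir-51, inside the 89 bp ncRNA F36H1.17, had 127.5, with 59.9 in replicate 1 and 67.2 in replicate 2. The nstp-10 intron peak near C50F4.17 had 130.2, with 66.3 and 59.6 in replicates 1 and 2. The peak beside CD4.17, in a CD4.11 intron, had 113.8, with 61.5 and 56.5 in replicates 1 and 2. All 3 were thus found in each replicate. In a drap-1 intron (drap-1 is the homologue of human DRAP1, a corepressor subunit), F40F9.14 and F40F9.15 held a summit with 112.4, found in replicate 2 alone. T28F4.7 held one of 110.8, with 45.4 in replicate 1 and 56.1 in replicate 2.

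MicroRNA genes were within 500 bp of 7 distal peaks (2.42%, 0.979 to 4.93%), against 0.845% of promoter peaks and 0.284% of the distal candidates outside the list. The 7 were mir-51, mir-4806, mir-241 (a let-7 family member), mir-8192, mir-8196.1, mir-2 and mir-87, and of the 7 the mir-51 peak was the strongest and the one found in both lists. Long intergenic or antisense RNA genes were near 5 (1.73%, 0.564 to 3.99%), against 0.563% of promoter peaks, 1.04% of peaks near small RNA genes and 0.581% of the distal candidates outside the list, and 4 of these genes (linc-128, linc-109, linc-154 and the antisense anr-20) held the summit. piRNA genes were near 8 (2.77%, against 2.71% of the distal candidates outside the list), with no summit inside one. rRNA genes were near none.

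Pseudogenes were within 500 bp of 24 distal peaks (8.30%, 5.39 to 12.1%), against 2.25% (0.978 to 4.39%) of promoter peaks and 5.21% of the distal candidates outside the list. A summit lay inside one at 9 peaks (3.11%), against 3.63% of those candidates. Of the 24, 22 were in sequence with several copies and 9 were in both lists. With 1 member kept per repeat family, 14 of 204 distal peaks (6.86%) had a pseudogene within 500 bp. The 8 strongest were those near K08F11.6 (2 peaks), T26G10.7, C52E12.t1, K07D4.1, Y116A8A.10, Y94H6A.t1 and Y48G1A.7, with signals of 116.9 to 268.4. Of these C52E12.t1 alone held the summit. It is the 72 bp tRNA pseudogene of the unc-104 intron, on chromosome II from 7001627 to 7001698, and its window matched the tRNA gene C43G2.t2 at 86.8% over 68 bp.

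The A box and B box cores were chosen after seeing sequences under these peaks, so their shares are a description, and repeat families carried many of the matches. The B box core GTTCNANNC was within 50 bp of 30 (10.4%, 7.11 to 14.5%), against 3.94% (2.17 to 6.53%) of promoter peaks, 48.04% of peaks near small RNA genes and 3.92% of distal candidates outside the list. The A box core GGCNNAGTG was at 23 (7.96%), against 2.25%, 8.62% and 0.650% in the same order. In families, GGCNNAGTG was at 17 of 108 distal peaks and GTTCNANNC at 19. In no family, GGCNNAGTG was at 6 of 181 (3.31%, 1.23 to 7.08%) and GTTCNANNC at 11 (6.08%, 3.07 to 10.6%), and these intervals overlapped those of promoter peaks. Of the candidates' shares, 0.650% for GGCNNAGTG lay below its interval and 3.92% for GTTCNANNC lay inside its own. Both words were within 100 bp at 16 distal peaks (5.54%), against 0.282% of promoter peaks, 8.09% of peaks near small RNA genes and 0.278% of the candidates. GGTTCGA, the tRNA form of the B box, was at 12 (4.15%), against 0.845%, 30.3% and 0.968%. In the 101 bp before the starts of all coding genes these 3 words were found in 2.47%, 0.365% and 0.360%.

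The homeodomain words were not frequent. ATCGAT was within 50 bp of 8 distal summits (2.77%, 1.20 to 5.38%), against 4.79% (2.81 to 7.56%) of promoter peaks, 2.09% near small RNA genes and 3.41% of distal candidates outside the list. All 8 had 1 genomic copy, 8 of the 144 such peaks (5.56%) against 0 of 145 with several (up to 2.51%). The exact intervals of these shares overlapped slightly. ATCAAT was at 18 (6.23%), 9 of them in families, and ATTAAT at 7 (2.42%), against 9.30 and 3.98% of the candidates. TTAGGC, the telomere repeat unit, was at 8 (2.77%) and TATAAA at 6 (2.08%), against 3.15 and 7.70% of the candidates. In the 101 bp before the starts of all coding genes ATCGAT was found in 4.87% of genes, ATCAAT in 12.1%, ATTAAT in 7.94%, TTAGGC in 1.83% and TATAAA in 19.5%.

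GAGAGA and GAGACGCA were found at distal and at promoter peaks. GAGACGCA and TTCNNGAA were chosen after seeing sequences under the peaks, so their shares too are a description. GAGAGA was within 50 bp of 50 distal summits (17.3%, 13.1 to 22.2%), against 18.6% (14.7 to 23.04%) of promoter peaks, 9.40% near small RNA genes and 5.64% of distal candidates outside the list. GAGACGCA was at 15 (5.19%, 2.93 to 8.42%), against 8.73% (6.01 to 12.2%), 0.522% and 0.724%, and TTCNNGAA at 16 (5.54%), against 3.38, 1.57 and 6.88%. In the 101 bp before all coding starts GAGAGA, GAGACGCA and TTCNNGAA were found in 8.80%, 1.12% and 5.76%. GC content moved with these contrasts: its median within 50 bp was 50.5% at distal peaks, 49.5% at promoter peaks, 50.5% near small RNA genes and 38.6% at the candidates, and its part in the word shares was not tested.

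Few distal peaks fell at genes of the nervous system lists, and the shares were too small to be told from those of the candidates. With each intron or exon peak given to its host and each intergenic peak to the nearest coding start, the pan-neuronal list had 3 distal peaks (1.04%, 0.215 to 3.00%, against 0.485% of the distal candidates outside the list). These were the unc-104 peak and intergenic peaks near unc-31 (which primes dense core vesicles, signal 64.002) and unc-33 (an axon growth protein, 54.7), both in neither replicate's list. A list with 1 distal peak has a share of 0.346% (0.00876 to 1.91%). The neurotransmitter list had 1 (mod-5, 89.4, replicate 2 alone), against 0.146% of the candidates. The neuropeptide list had 1 (nlp-40, 66.01, in neither), against 0.591%, and axon guidance and adhesion 1 (sax-3, the Robo receptor, 62.1, in neither), against 1.07%. The ion channel list had 3 (1.04%, against 2.11% of the candidates), all at trp-4, a mechanosensory TRP channel, with signals of 66.04 to 67.96.

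CUT and homeobox genes had 1 distal peak (0.346%, against 0.0593% of the candidates for CUT and 0.828% for homeobox genes), in an intron of ceh-44 itself, at 63.2, with 46.04 in replicate 2's own list and none in replicate 1's. The tag was inserted at this gene, and whether that bears on the peak was not tested. The chemoreceptor list had 7 (2.42%, against 3.36% of the candidates), the strongest near srv-14 (173.6), in srt-52 (97.96), near srh-63 (89.5) and in srw-100 (66.1). Nuclear hormone receptors had 2, the nhr-277 peak in the tRNA-like repeat (121.2) and one in nhr-121 (57.2). Collagens had 2 (col-105 at 77.2 and col-39 at 58.9), the muscle list 2 (deb-1 at 61.6 and zyx-1 at 59.4, the vinculin and zyxin homologues), ribosomal proteins 2 (rpl-7A and rps-6) and histones none. A list with 2 has a share of 0.692% (0.0839 to 2.48%), against 1.54% of the candidates for nuclear hormone receptors, 0.579% for collagens, 0.518% for the muscle list and 0.111% for ribosomal proteins. The candidates' share for ribosomal proteins lies inside that interval too. No list had more than 2.42% of the distal peaks.

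Distal peaks were spread over all chromosomes, from 43 on II to 52 on III and 52 on X. The X share was 17.99% (13.7 to 22.9%), against 7.32% (4.84 to 10.5%) of promoter peaks, 33.9% of peaks near small RNA genes and 17.3% of distal candidates outside the list. The distal share was close to that of the distal candidates and lay between those of the other classes.

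A remainder of 97 distal peaks (33.6%) had none of these features: no other noncoding gene (piRNA genes aside) or pseudogene within 500 bp, and no repeated sequence by copies, family or words. Of these 40 were in introns, 36 intergenic and 21 in exons, with a median signal of 63.9 (quartiles 58.4 and 72.7), and 7 were in both replicates' lists. The strongest, near W02H3.3 on the X chromosome, had 149.96, with 58.5 in replicate 1 and 88.7 in replicate 2. An intergenic peak near F20B6.9 had 122.9, with 46.4 and 75.1 in replicates 1 and 2, and one in scc-2 had 117.4, with 45.4 and 74.9 in replicates 1 and 2. Peaks near K02D3.1 (109.8) and pqn-42 (104.02) and in introns of hmt-1 (an ABC transporter, 102.8) and tmie-1 (101.7) completed the 7. The 90 others, at signals of up to 93.6, were in at most 1 replicate's own list.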

How the data were processed

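The members and lists here were chosen with earlier results of these data known. The authors' deposited lists hold peaks on ce11 with a signal per peak, on a scale not stated. Their ranked list also holds the −log10 of the irreproducible discovery rate (IDR), per the file headers and layout, and peaks of the thresholded list had at least 2 (an IDR of 0.01). A control library is named among the inputs, per the deposited descriptions, and was not analysed here. The sources used here do not give the aligner, the peak caller, the read depth or the treatment of reads from repeats, so a signal has no interval.

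Summits were placed on Ensembl release 115 (WBcel235), with exons before introns. Gene names came from RefSeq through WormBase identifiers, for 46881 of 46890 genes, and restored ceh-44, which Ensembl files as cone-1. Own-list overlap was at least 1 bp. Copies and families came from BLASTN 2.17.0 (E at most 0.0001, no low-complexity filter), families with networkx 3.6.1, leaving out matches of 3 pairs of overlapping windows to themselves. Other steps used python 3.11.15, numpy 2.4.6, pandas 2.3.3, scipy 1.17.1 and matplotlib 3.10.9. The count of repeated words, the word search (with GGTTCGA) and the overlap of peaks were tested on simulated data, and the intervals' coverage by enumeration. The placing of summits, nearby genes, copies and families were not among these tests. Named peaks were the 10 strongest intron, 8 strongest exon and 10 strongest intergenic ones, up to 8 each at other noncoding genes and pseudogenes, 6 with the most repeated words, up to 4 per gene list, and those at CUT genes. Others, such as members of families, microRNA and SRP RNA peaks, and peaks free of repeats, were named after their values were seen. After seeing the data, the name pattern for ribosomal proteins was widened to take lettered names and that for chemoreceptors narrowed to leave out serpins. Peaks of 1 experiment are not replicates, so shares are given with exact intervals and no test.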

Additional observations from a re-analysis of the deposited data

Results flagged for a closer look

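The ranked list held 82 candidates with a −log10 IDR of at least 2 that were absent from the thresholded series list, and 73 of these were at distal positions. They stand out because they pass the IDR value that the listed peaks have and are in none of the peak counts above. The 73 are among the 89446 distal candidates outside the list. Their median signal was 98.5 (13.3 to 2133), and a median of 87.7% of the 30-base words around their summits was repeated in the genome. Why they are absent is not given in the sources used here, and was not tested.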

How the results depend on the processing

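Of 161 values recomputed under other settings 126 were labelled the same and 35 moved. Shares and medians were the same when inside the 95% interval of the reported value. Counts were judged by a fixed factor, with no error computed. Leaving out a replicate (the other's own list) gave 90 to 109 distal peaks, 20.8 to 23.3% of the list. In these lists introns held 35.6 to 41.3%, exons 5.56 to 6.42% and intergenic sequence 52.3 to 58.9%, pseudogenes were near 12.2 to 12.8%, and 28.9 to 32.1% had 50% or more repeated words. In the stronger part of the list by signal, 100 peaks were distal (19.5%), with a median of 92.6, and exons held 4.0%, intergenic sequence 53.0%, pseudogenes 14%, repeated words 35.0% and ATCAAT 10%. The distal share was 22.1% with promoters of 2000 bp, 33.8% with 500 bp and 23.9% with all annotated starts, where introns held 35.9% and intergenic sequence 55.1%. With 50-base words 15.6% were repeated. Within 100 bp, ATCGAT was at 7.96%, ATCAAT at 11.8%, ATTAAT at 5.54%, GAGAGA at 23.2%, TTAGGC at 5.54% and TATAAA at 7.27%. Summits inside the gene were 7.61% for other ncRNA and 3.11% for pseudogenes. With 1 member per repeat family (204 peaks, chosen after seeing the data) exons held 15.7% and repeated words 9.80%. Signal was not recomputed in other lists, each of which has its own scale. No paired analysis was possible because there is 1 group. Unknown depth, whole animals and 1 tagged strain limit all values.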
